A study of Homo sapiens with 4 samples.

Results

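Collagens and laminins are the main structural proteins of the extracellular matrix, and many of their chains are made in more than 1 splice form. The splicing events described here are those whose gene symbol begins with COL and a chain number (such as COL6A3) or with LAMA, LAMB or LAMC and a number. This gave 408 of the 121269 events in the data, under 37 of 12219 gene symbols. Of these symbols, 25 name a collagen chain, 11 a laminin chain and 1, COL4A3BP, a protein that is no collagen: it is the ceramide transfer protein, which carries ceramide between membranes and was named after an early report that it binds type IV collagen. The events were 332 skipped exons at 273 distinct exons, 66 pairs listed as mutually exclusive exons, 5 alternative 5′ splice sites, 3 alternative 3′ splice sites and 2 retained introns. Where counts are given for collagens and laminins together, COL4A3BP is included.

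RNA-seq was made from U87MG cells, an adherent human line that the labels call a likely glioblastoma, transfected by lipofection with 2.5 µM of an oligonucleotide. RBFOXi is a decoy RNA built from the motif that RBFOX1 and RBFOX2 bind, and SCRM is the scrambled control. Each group had 2 libraries from separate cultures; the label of RBFOXi replicate 1 names a Cy5 dye on the oligonucleotide and those of the other 3 libraries name none, so the dye and the replicate cannot be told apart. The comparison asks whether blocking the RBFOX proteins alters splicing, here that of matrix genes. Of the markers of this kind of cell, VIM, CD44 and SPARC had between 40722 and 512906 exon reads per library. CHI3L1 had no row in the table of skipped exons, nor did PTPRC, CD3E, EPCAM, CDH1, PECAM1, RBFOX3 or MOG, which mark blood, epithelial, endothelial, neuronal and myelin-forming cells. Only genes with a listed skipped exon have a row, so a missing row is no measure of a gene's level. SYP and MBP, of neurons and of myelin-forming cells, had between 0 and 33 reads.

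Collagen chains wind into a triple helix that needs a glycine at the start of every repeat of glycine and 2 other residues, and the chains assemble into fibrils, beaded filaments or the open network of basement membranes. Laminins are cross-shaped trimers of an alpha, a beta and a gamma chain that bind cell receptors and hold basement membranes together. RBFOX proteins bind UGCAUG in introns. A site downstream of an exon is known to favour its inclusion and a site upstream to favour its skipping.

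The repeat can be read in the exons themselves. Among the 174 distinct collagen exons in the skipped exon table, 137 (78.7%) had a length divisible by 3 and 97 (55.7%) a length divisible by 9, against 41.2% and 13.9% of all 57729 distinct exons listed. Exon lengths of 54 nt were found 30 times, of 63 and 108 nt 14 times each and of 36 nt 13 times. In 77 collagen exons (44.3%), every unit of 9 nt opened with GG, the start of a glycine codon, against 0.14% of all exons and 0 of the 88 laminin exons. Laminin exons were divisible by 3 in 37.5% and by 9 in 13.6%. The tested exon of this kind and of 54 nt with the most reads was exon 20 of 51 of COL1A1, the alpha 1 chain of type I collagen, on the minus strand at chr17:48272408-48272461 (hg19). It is shown 5′ to 3′ with the first 2 bases of each unit in capitals:
COL1A1 exon 20: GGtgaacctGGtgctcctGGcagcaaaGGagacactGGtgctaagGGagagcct
It was included in nearly all transcripts, with a PSI of 0.9995, 1.00, 1.00 and 0.9995. PSI, the proportion spliced in, estimates the share with the exon among transcripts of the forms that an event compares. Reads inside an exon count in each of its events, so an exon with several events can have unlike values. Values are given in the order RBFOXi replicate 1, RBFOXi replicate 2, SCRM replicate 1, SCRM replicate 2 wherever 4 stand together. Of the 21 tested events whose exon was made up of such units, 19 had a mean PSI of at least 0.95 in SCRM. The other two were exons of COL13A1, described further on.

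1 library stood apart from the rest. In SCRM replicate 1, counts were lower the farther an exon lay from the 3′ end of its transcript. This was read over 202 exons of collagens, laminins and COL4A3BP with at least 400 inclusion reads in all. The exon's share of the reads of SCRM replicate 1 was compared with its mean share in the other 3 libraries. The median log2 ratio was 0.55 for exons within 1000 nt of the 3′ end, -0.69 between 2000 and 4000 nt and -3.16 beyond 8000 nt. All 65 of the exons at 4000 nt or more had their lowest share in this library. Exons of all genes showed a slope as well, from 0.64 within 1000 nt to -2.10 beyond 8000 nt, and collagen and laminin genes are long: the median transcript was 5914 nt, against 3395 nt for all genes. COL6A3, the longest chain of type VI collagen, shows it within 1 gene. Exon 43 of its 44 exons had 26141, 26526, 25332 and 25454 reads, and exon 4 had 10688, 15095, 611 and 17082. Over all skipped exon events of these genes, SCRM replicate 1 had 500205 counts and the other libraries between 880292 and 1082481. Within a transcript, PSI compares reads from neighbouring places, but its precision in this library falls toward the 5′ end. The part of this slope in the results below was not tested, and the main results on exons far from the 3′ end are given with and without this library.

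**Figure D1:**
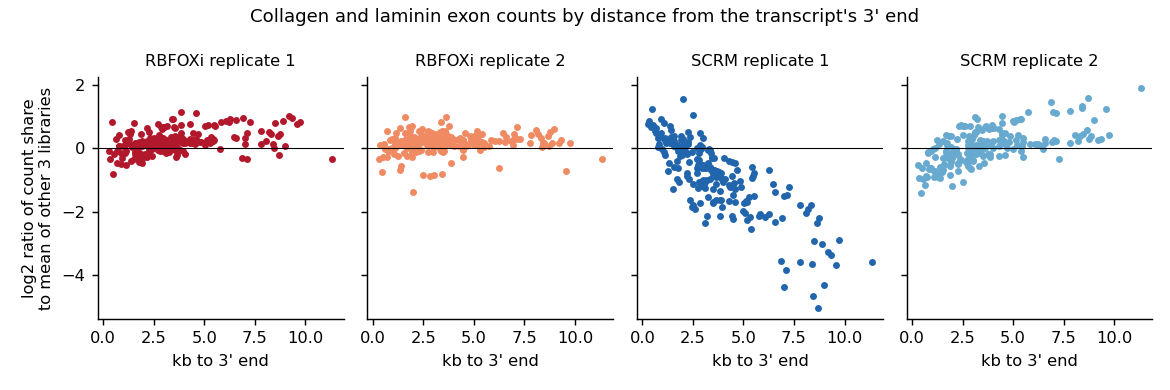
Each point is 1 of 202 exons of collagens, laminins and COL4A3BP, with a panel for each library. The x axis is its distance from the 3′ end of the transcript (kb). The y axis is the log2 ratio of its share of reads in 1 library to its mean share in the other 3. In SCRM replicate 1 the points fall from a median of 0.55 within 1000 nt to -3.16 beyond 8000 nt, and in the other 3 libraries the medians of these bins lie between -0.63 and 0.48.

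To be tested, an event could have no library under 5 counts, had to average 20 or more, and had to show each form in 4 or more reads. For skipped exons this held for 117 of the 332 events, at 97 exons of 23 genes. Of the 215 events left out, 211 had fewer than 4 reads that skip the exon over all libraries. Most listed events thus had too few skipping reads to test, and how many reads they had in all is not given here. In SCRM, 90 of the 117 events (76.9%) had a mean PSI of at least 0.95, against 66% of all 39615 tested events, so that most were exons with few skipping reads. A PSI between 0.1 and 0.9 was found in 17 events (14.5%), against 18.7% of all.

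No collagen or laminin event was called. The threshold was an adjusted p under 0.05 (limma on the log2 odds of inclusion, Benjamini-Hochberg over all tested events of the type) with a delta PSI, RBFOXi minus SCRM, of at least 0.1 in either direction. By it 0 of 117 skipped exon events were called, against 27 of 39615 (0.0682%) of all, and a quasi-binomial F test called 0 as well. At an unadjusted p under 0.05 there were 6 of 117 (5.13%), 3 with higher and 3 with lower inclusion after RBFOXi, against 3.61% of all tested events (1.87% higher and 1.74% lower). The RBFOXi libraries lay on 1 side of both SCRM libraries in 40 events (34.2%), against 30.8% of all. An absolute delta PSI of at least 0.1 was reached in 7 (5.98%), against 4.83%. The median delta PSI was -2.86e-05, against -5.65e-05 for all tested events, and the median absolute delta PSI was 0.00602 against 0.00804. With a median standard error of 1.07 on the log2 odds, small differences were not detectable at this number of libraries.

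**Figure D2:**
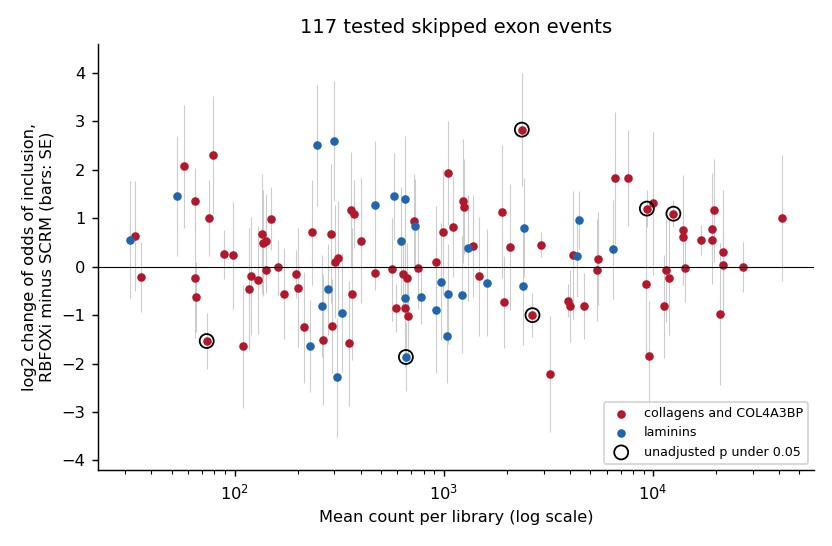
Each point is 1 of the 117 tested skipped exon events, with the mean count per library on a log scale (x axis) and the log2 difference in the odds of inclusion, RBFOXi minus SCRM (y axis), with its standard error as a bar. Red points are collagens and COL4A3BP, blue points laminins, and circles mark the 6 events with an unadjusted p under 0.05, which lie on both sides of 0.

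Type VI collagen, which forms beaded filaments around cells, gave the event with the smallest p. The 5′ part of COL6A3 codes for a row of von Willebrand factor A domains, and its exons 3, 4 and 6, of 618, 603 and 600 nt, are each left out of part of the transcripts. Exon 4 (chr2:238296225-238296827, hg19, minus strand, coding throughout), measured between exons 2 and 5, had a PSI of 0.456 and 0.597 after RBFOXi and of 0.301 and 0.388 in SCRM. Both RBFOXi libraries were above both SCRM libraries. The means were 0.526 ± 0.10 and 0.344 ± 0.061 (SD, n = 2 each), a delta PSI of 0.182. The log2 odds differed by 1.09 ± 0.27 (SE), with an unadjusted p of 0.00145 and an adjusted p of 0.631 (limma). The counts behind it were 12316, 16393, 792 and 20522, so SCRM replicate 1 was the thinnest library by far. Without SCRM replicate 1 the delta PSI was 0.139 (adjusted p = 0.999, limma), without SCRM replicate 2 it was 0.226 (adjusted p = 0.693), without RBFOXi replicate 2 it was 0.111 (adjusted p = 1.00), and without RBFOXi replicate 1 it was 0.253 (adjusted p = 0.00182), past the threshold. With 1 count in every library as the only filter the adjusted p was 0.0103 (limma), and 44 of 82926 events of all genes were called.

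Among transcripts that skip exon 3, the reads that join exon 2 to exon 4, 5, 6 or 7 show the choice of exon 4 without the reads inside it; this count was chosen after the values above were seen and shares skipping reads with them. Of 2703 such reads in RBFOXi replicate 1, 36.7% joined exon 4 (95% exact binomial interval 34.8 to 38.5%), and in RBFOXi replicate 2 it was 55.6% of 3124 (53.9 to 57.4%). In SCRM replicate 1 it was 17.1% of 234 (12.5 to 22.5%), and in SCRM replicate 2 it was 32.9% of 5405 (31.7 to 34.2%). The intervals cover counting error only. RBFOXi replicate 1 and SCRM replicate 2 lie close to each other, and the replicates of each group lie further apart than these neighbours. With 2 libraries against 2, an exact permutation test, two-sided, cannot go below p = 0.333. Most of the remaining reads joined exon 5, with 60.2%, 41.5%, 77.4% and 63.6%.

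A copy of UGCAUG begins 57 nt before exon 4, the only copy in the 300 nt upstream, and the first copy downstream is 2703 nt away. The last 80 nt of the intron (chr2:238296828-238296907, hg19, minus strand) are shown with the motif, TGCATG in DNA letters, in capitals:
COL6A3 intron before exon 4: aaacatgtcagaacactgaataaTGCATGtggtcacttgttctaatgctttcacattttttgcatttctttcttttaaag
Whether RBFOX binds here was not measured.

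The neighbouring exons of COL6A3 did not pass the test. Exon 4 between exons 2 and 7 had a PSI of 0.934, 0.951, 0.841 and 0.909, with both RBFOXi libraries higher (unadjusted p = 0.00845, adjusted p = 1.00, limma), and without SCRM replicate 1 the delta PSI went from 0.0673 to 0.0336. Between exons 2 and 6, exon 4 had 0.9983, 0.9988, 1.00 and 1.00, with both RBFOXi libraries lower on 2, 2, 0 and 0 skipping reads. Between exons 3 and 5 it had 0.9977, 1.00, 1.00 and 0.9995, with groups that overlap. Exon 6 between exons 5 and 7 had 0.715, 0.796, 0.605 and 0.746, with groups that overlap, and between exons 2 and 7 it had 0.956, 0.959, 0.929 and 0.944. Without SCRM replicate 1 the log2 odds of the first of these differed by 0.088 in place of 0.56 (unadjusted p = 0.797 in place of 0.0946, limma) and those of the second by 0.40 (unadjusted p = 0.309). Exon 3, which has UGCAUG 179 nt upstream, gave opposite signs with its 2 reference forms. Measured between exons 2 and 4 its PSI was 0.208, 0.0703, 0.291 and 0.163, a delta PSI of -0.0881 with groups that overlap (unadjusted p = 0.0487, adjusted p = 1.00, limma). Measured between exons 2 and 5 it was 0.116, 0.0787, 0.0650 and 0.0791, a delta PSI of 0.0254. The skipping reads of the first form are the reads that join exon 2 to exon 4, which count as inclusion of exon 4, so the values of exons 3 and 4 are not independent. Without RBFOXi replicate 1 the first form had a delta PSI of -0.157 and was past the threshold (adjusted p = 0.000380, limma), without RBFOXi replicate 2 it was -0.0193, and without SCRM replicate 1 it was -0.0239 (unadjusted p = 0.445, limma).

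Over the 3 chains of type VI collagen, 27 events were tested and 3 had an unadjusted p under 0.05, all in COL6A3, where exons 3 and 4 supply them. COL6A1 and COL6A2, which code for the shorter chains, had events close to full inclusion. In all, 21 of the 27 events had a mean PSI of at least 0.95 in SCRM, and delta PSI ranged from -0.0881 to 0.182.

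**Figure D3:**
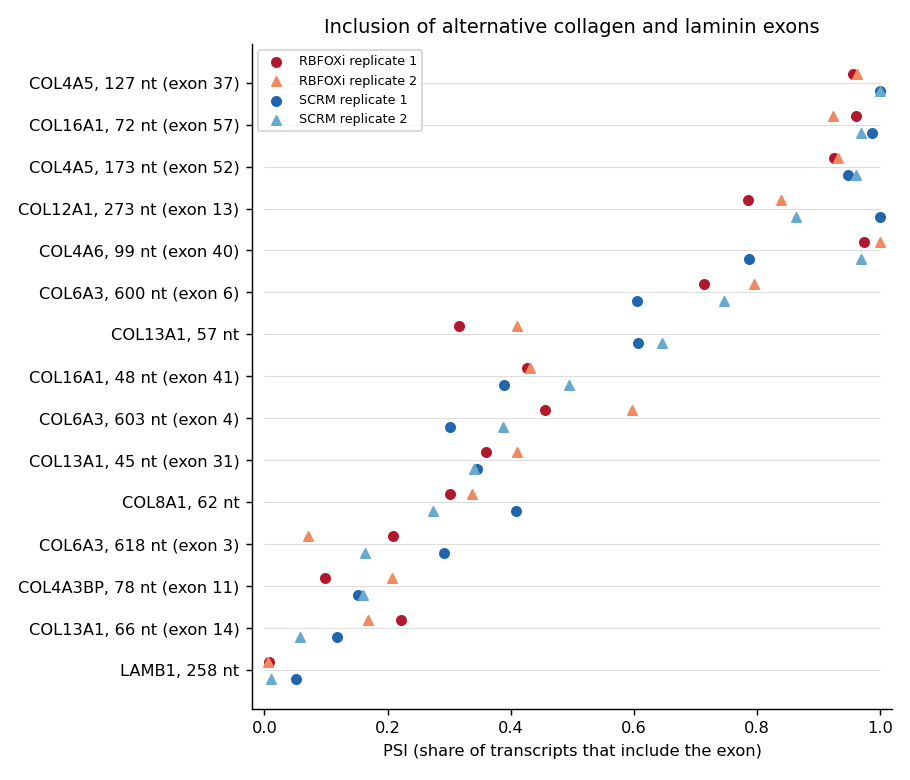
PSI (x axis, from 0 to 1) of 15 alternative exons (y axis, with the exon's length and its number in the canonical transcript) in each of the 4 libraries, with red points for RBFOXi and blue points for SCRM. In COL13A1 (57 nt) both red points lie left of both blue points, in COL6A3 exon 4 both lie right of them, and in COL4A3BP the blue points lie between the red ones.

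Type V collagen regulates the width of type I collagen fibrils, and its alpha 1 chain, COL5A1, has a pair of exons near its 3′ end of which a transcript carries 1. The pair lies on the plus strand of chromosome 9, each exon is 69 nt long, and an intron of 63 nt with no UGCAUG separates them. The first is exon 64 of the canonical transcript. A copy of UGCAUG begins 11 nt before the first exon, next to its 3′ splice site, and another at nt 67 of the intron after the second exon, so the pair has the motif on its outer sides. The copy after the second exon is shown in capitals, at chr9:137722073-137722112 (hg19):
COL5A1 intron after the second exon: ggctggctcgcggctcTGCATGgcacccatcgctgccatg

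The first exon was used in most transcripts of every library. Its reads came to 2148, 2339, 1706 and 1415, and those of the second exon to 54, 93, 104 and 215. The share with the first exon was 0.976 and 0.962 after RBFOXi and 0.943 and 0.868 in SCRM, so both RBFOXi libraries were higher. The delta PSI was 0.0633, and the log2 odds differed by 1.60 ± 0.41 (SE), with an unadjusted p of 0.00357 and an adjusted p of 1.00 (limma). This was the smallest p of the 64 tested pairs. Without SCRM replicate 1 the delta PSI was 0.101 and past the threshold (adjusted p = 0.0247, limma), and without SCRM replicate 2 it was 0.0261 (adjusted p = 0.0576).

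**Figure D4:**
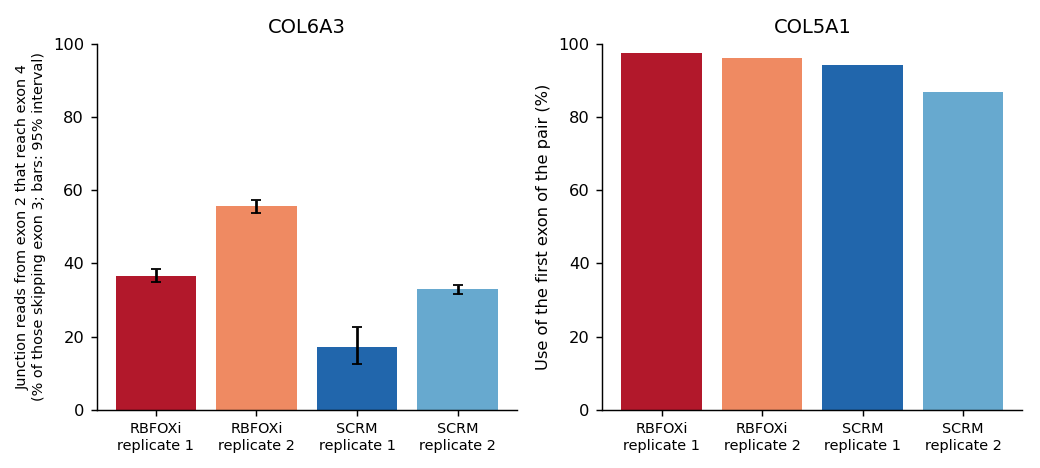
Left, the share that reach exon 4 among the reads that join COL6A3 exon 2 to exon 4, 5, 6 or 7 (%, y axis, with 95% exact binomial intervals) in each library. Right, the share of COL5A1 transcripts with the first exon of the pair (%, y axis) in each library; both red bars (RBFOXi) are higher than both blue bars (SCRM) in each panel, with little distance between 36.7% and 32.9% on the left.

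Among the pairs listed as mutually exclusive exons, 0 of 64 were called by limma and 0 by the quasi-binomial F test. Of all 26176 tested pairs, 0% were called by limma. At an unadjusted p under 0.05 (limma) there were 7 (10.9%), all with a higher value for the first exon, against 1.51% of all (0.871% higher). Of the 7, 5 were events of COL6A3 that count exon 4 as the first exon and share its reads, so these are not separate results. Without SCRM replicate 1 their delta PSI was 0.0532 to 0.0656. Their second exon is exon 5 or 6. Measured between exons 4 and 7, exon 5 had a PSI of 0.9989 to 1.00 and exon 6 one of 0.9985 to 1.00. A transcript can thus carry exon 4 with these exons. The 5 values compare reads of such exons and are no shares of transcripts. The rest of the 7 were the COL5A1 pair and a pair in COL6A2 of 36 and 46 nt. The latter lies on chromosome 21 at 47544799 to 47544834 and at 47545180 to 47545225 (unadjusted p = 0.0160, adjusted p = 1.00, limma). The value of the COL6A2 pair was low in every library, at 0.0625, 0.0829, 0.0351 and 0.0518. Its exons are neighbours in the canonical transcript, exons 23 and 24 of 28. Measured directly after exon 23, exon 24 had a PSI of 0.961, 0.943, 0.974 and 0.967. A transcript can thus carry both, and the value is no share of transcripts with exon 23 in place of exon 24.

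The other fibrillar collagens gave little to compare. The 13 events tested in COL1A1, COL1A2, COL5A1 and COL27A1 all had a mean PSI of at least 0.987 in both groups, and delta PSI ranged from -0.00849 to 0.00636. Exon 6 of COL5A1, of 138 nt, had an unadjusted p of 0.0295 (adjusted p = 1.00, limma) with a PSI of 0.998, 1.00, 0.992 and 0.996, a delta PSI of 0.00537. It lies 7133 nt from the 3′ end, and without SCRM replicate 1 the delta PSI was 0.00351 (unadjusted p = 0.142, limma). The shares of skipped transcripts behind this p are at most 0.8% and rest on few reads.

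COL13A1, a membrane-anchored collagen found where cells attach to matrix, had 7 tested events, of which 4 had a PSI between 0.1 and 0.9 in SCRM and 1 an unadjusted p under 0.05. An exon of 57 nt at chr10:71657231-71657287 (hg19, plus strand), which is not in the canonical transcript, had a PSI of 0.316 and 0.410 after RBFOXi and of 0.606 and 0.645 in SCRM:
COL13A1 57 nt exon: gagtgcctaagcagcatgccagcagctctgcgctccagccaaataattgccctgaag
It is shown because it had the largest delta PSI of the 117 events, -0.263, with both RBFOXi libraries lower. The means were 0.363 ± 0.067 and 0.626 ± 0.027 (SD, n = 2 each), and the log2 odds differed by -1.53 ± 0.58 (SE; unadjusted p = 0.0202, adjusted p = 1.00, limma). The counts were small, 84, 52, 97 and 61. With each library left out in turn, delta PSI stayed between -0.310 and -0.216, and the event was not called in any of the 4 fits. There was no UGCAUG in the 300 nt on either side.

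The next exon of COL13A1, exon 14 of 66 nt (chr10:71658453-71658518), measured after the 57 nt exon, had a PSI of 0.222 and 0.169 after RBFOXi and of 0.119 and 0.0575 in SCRM (unadjusted p = 0.0663, adjusted p = 1.00, limma). The reads it is compared with there count as inclusion of the 57 nt exon, so the values of these neighbours are not independent. In the event that shares its skipping reads with the 57 nt exon it was 0.148, 0.164, 0.224 and 0.134, with groups that overlap. Exon 31 of 45 nt had 0.361, 0.410, 0.345 and 0.340, a delta PSI of 0.0428 (unadjusted p = 0.622, limma). Exon 35 of 36 nt had 0.0409, 0.0656, 0.0835 and 0 (unadjusted p = 0.831, limma). Exons 31 and 35 were the ones made of glycine repeat units that were not mostly included.

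Collagens of the basement membrane (6 events) and those that bind along fibrils (12 events) had no unadjusted p under 0.05. COL4A5 and COL4A6 are neighbouring genes on the X chromosome that code for chains of the type IV network. COL4A6 exon 40 of 99 nt had 0.974, 1.00, 0.787 and 0.969 (delta PSI 0.109, unadjusted p = 0.127, adjusted p = 1.00, limma). SCRM replicate 1 alone was well below the rest there, and the RBFOXi mean of 0.987 was close to the 0.969 of SCRM replicate 2. COL4A5 exon 37 of 127 nt had 0.956, 0.963, 1.00 and 1.00, and its exon 52 of 173 nt had 0.925, 0.932, 0.948 and 0.960. For each of these the RBFOXi libraries lay on 1 side, with 0 to 6 skipping reads per library. COL12A1 binds along type I fibrils. Its exon 13 of 273 nt had 0.786, 0.839, 1.00 and 0.863 (unadjusted p = 0.108, adjusted p = 1.00, limma), but SCRM replicate 1 had 19 counts there and no skipping read, and the exon lies 8703 nt from the 3′ end. Without this library the log2 odds differed by -0.54 (unadjusted p = 0.331, limma).

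COL16A1, a collagen of the same fibril-associated class, had an exon near the middle of the range. Its exon 41 of 48 nt had a PSI of 0.426, 0.431, 0.389 and 0.495, with both RBFOXi libraries between the SCRM libraries. Exon 57 of 72 nt had 0.961, 0.923, 0.987 and 0.970 (delta PSI -0.0365, unadjusted p = 0.231, adjusted p = 1.00, limma). It is the tested collagen exon with UGCAUG nearest downstream, 39 nt into the intron, and lies on the minus strand at chr1:32128188-32128259 (hg19). The motif is in capitals in the intron at chr1:32128128-32128167:
COL16A1 intron after exon 57: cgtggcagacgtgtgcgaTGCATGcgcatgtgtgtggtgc
Both RBFOXi libraries were lower, with 3, 9, 1 and 2 skipping reads in the 4 libraries, so this separation rests on few reads. COL8A1 codes for a short network-forming chain. An exon of 62 nt upstream of its canonical exon 2 had 0.301, 0.337, 0.408 and 0.274 (unadjusted p = 0.739, adjusted p = 1.00, limma), with groups that overlap; none of the 9 events of the gene had groups apart. In COL7A1, whose product anchors the epidermis, 8 events were tested with a mean PSI of at least 0.95 in SCRM in each, and delta PSI ranged from -0.0192 to 0.0120. The 1 event tested in COL15A1, a collagen of the outer basement membrane zone, had a delta PSI of 0.0338 with groups that overlap.

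Laminin exons were mostly constitutive. In 7 genes, 29 events were tested, of which 25 had a mean PSI of at least 0.95 in SCRM, and none had a delta PSI of 0.1 in either direction. At an unadjusted p under 0.05 there was 1. This was an exon of 258 nt in LAMB1, the beta chain of laminins that many cell types make, at chr7:107642572-107642829 (hg19, minus strand). It is rarely used, with a PSI of 0.00772, 0.00500, 0.0509 and 0.00980 (unadjusted p = 0.0182, adjusted p = 1.00, limma). SCRM replicate 1 alone was well above the rest, and without it the delta PSI was -0.00344 (unadjusted p = 0.304, limma). In the alpha chains 13 events were tested with no unadjusted p under 0.05, among them 10 of LAMA5. The beta chains gave 14 events. LAMC1, the common gamma chain, was listed with no event that could be tested.

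COL4A3BP has an exon of 78 nt, exon 11 of 17, that is coding and left out of most transcripts; the long form with it is the one first described as a kinase of the Goodpasture antigen. It lies at chr5:74695135-74695212 (hg19, minus strand) and is flanked by UGCAUG on both sides, 147 nt upstream and 176 nt downstream. The exon and both places are shown, with the motif in capitals, at chr5:74695333-74695372 and chr5:74694935-74694974:
COL4A3BP exon 11: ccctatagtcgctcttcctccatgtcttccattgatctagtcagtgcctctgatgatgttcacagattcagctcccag
COL4A3BP intron before exon 11: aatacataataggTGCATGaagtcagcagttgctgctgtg
COL4A3BP intron after exon 11: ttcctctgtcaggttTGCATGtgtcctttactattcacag
Its PSI was 0.0979, 0.207, 0.152 and 0.161. The SCRM values lay between the RBFOXi values, and the delta PSI was -0.00412 (unadjusted p = 0.770, adjusted p = 1.00, limma). The other 4 tested events of the gene had a mean PSI of at least 0.95 in SCRM.

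Over the tested events, UGCAUG stood beside collagen and laminin exons about as often as beside others. It was searched on the strand of the gene only. The motif lay in the first 300 nt downstream in 10 of 117 events (8.55%, 95% exact binomial interval 4.17 to 15.2%), against 8.41% of all tested events. In the last 300 nt upstream it was found in 10 (8.55%), against 8.41%. The 10 events were 9 exons for the downstream motif and 6 exons for the upstream motif. An exon can thus count more than once, and the interval takes events as independent. In the whole downstream intron it was found in 42.7% against 53.0%, with a median intron length of 1130 nt against 2626 nt. The 10 events with the downstream motif had a median delta PSI of 0.000718 (range -0.0365 to 0.0190), and none had an unadjusted p under 0.05. The 10 with the upstream motif had a median of 0.00120 (range -0.0881 to 0.182), and the 3 with an unadjusted p under 0.05 were all of COL6A3 exons 3 and 4. The 100 events with neither had a median of -6.05e-05, and 3 had an unadjusted p under 0.05. Such counts by motif were not made over the events of all genes, so these have no background to be read against.

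In the remaining event types 7 events could be tested and 0 were called, against 0% of all tested events of each type with limma. None had an unadjusted p under 0.05, against 3.32% of all tested alternative 3′ splice sites, 3.59% of 5′ splice sites and 1.74% of retained introns. An alternative 3′ splice site in COL6A2 adds 293 nt to an exon and was used in 0.125, 0.153, 0.101 and 0.118 of transcripts (unadjusted p = 0.154, limma). The alternative 5′ splice site with the smallest p was in LAMA4, the alpha chain of laminins of blood vessels, where 21 nt were kept in 0.430, 0.417, 0.348 and 0.374 (unadjusted p = 0.306, limma). In both, the RBFOXi libraries lay above the SCRM libraries by less than the test could tell from the spread. In LAMA1 a 3′ splice site 67 nt further upstream was used in 0.945, 0.979, 0.956 and 0.938, and in COL27A1 a 5′ splice site 7 nt further downstream in 0.0296, 0.106, 0.0884 and 0.0870. The only retained intron tested, of 610 nt in COL17A1, had levels of 0.831, 0.719, 0.804 and 0.885 (unadjusted p = 0.621, limma) with 1 to 5 spliced reads per library. In these 3 the groups overlapped.

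The genes that process, bind or degrade these proteins were read from the same fit. Of 27 genes of collagen synthesis and cross-linking, 19 had 90 tested skipped exon events, of which 1 was called, with lower inclusion after RBFOXi, and 7 (7.78%) had an unadjusted p under 0.05, against 0.0682% called and 3.61% of all tested events. In 5 genes of basement membrane partners, 16 events were tested with 0 called and 0 with an unadjusted p under 0.05. In 13 receptors, 61 were tested with 0 called and 5 (8.20%) with an unadjusted p under 0.05, and in 4 genes of degradation 17 were tested with 0 called and 0 with an unadjusted p under 0.05 (limma).

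The called event was in PLOD2, which hydroxylates lysines of collagen telopeptides, the step that sets the type of cross-link in collagen. Its exon 14 of 20, of 63 nt (chromosome 3, 145795649 to 145795711, hg19, minus strand), had a PSI of 0.724 and 0.659 after RBFOXi and of 0.947 and 0.924 in SCRM. Inclusion fell in both RBFOXi libraries below both SCRM libraries. The delta PSI was -0.244 and the log2 odds differed by -2.70 ± 0.28 (SE; adjusted p = 0.00126, limma). UGCAUG begins 132 nt upstream of it and 848 nt downstream.

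Reads over the alternative exons of a gene were summed as a stand-in for its level, since tables of gene counts were not used here. Scaled to 1000000 reads per library and per kb of counted length, the highest SCRM means among these genes were those of COL6A1 (709), COL1A2 (700.9), COL6A2 (689) and COL1A1 (681), the chains of type VI and type I collagen. COL6A1 had 665, 797, 776 and 642, COL1A2 had 787, 582, 741 and 661, COL6A2 had 556, 655, 849 and 528, and COL1A1 had 691, 621, 773 and 589. In all 4 genes the groups overlapped, and these genes do not differ from each other beyond that spread. COL6A3 came next, with 514, 469, 316 and 567. In SCRM replicate 2 alone it was above COL6A2, so its place below COL6A2 by the SCRM mean rests on SCRM replicate 1. In both RBFOXi libraries COL6A3 was below COL6A2 as well. The laminin chains LAMC1 and LAMB1 followed, with 147, 159, 107 and 206 for LAMC1 and 116, 103, 104 and 108 for LAMB1. COL5A1 had 120, 104, 105 and 83.2, COL7A1, the anchoring fibril collagen, had 65.7, 66.4, 69.9 and 47.4, and COL5A2 had 70.0, 65.5, 24.4 and 85.8. Only the exons listed as alternative enter these sums, and for COL5A2 they are 2 exons of 0.063 kb together. LAMC1 and LAMB1 are the gamma and beta chain of the same trimers; among alpha chains the highest was LAMA5, with 63.6, 47.1, 33.8 and 36.9. In LAMA5 both RBFOXi libraries lay above both SCRM libraries, with a log2 difference of 0.64 ± 0.39 (SE; unadjusted p = 0.149, adjusted p = 1.00, limma-voom). With exons within 2000 nt of the 3′ end alone the LAMA5 difference was 0.48, and without SCRM replicate 1 it was 0.575. COL16A1, LAMB2, COL27A1 and COL15A1 also had both RBFOXi libraries higher, and LAMA1 had both lower.

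Of 30 genes tested, 0 were called at an adjusted p under 0.05 and 0 had an unadjusted p under 0.05 (limma-voom), against 0% called and 0.0999% with an unadjusted p under 0.05 of all 11006 genes. The median log2 difference, RBFOXi minus SCRM, was 0.21, against 0.04 for all genes. Without SCRM replicate 1 it was 0.17 with 0 genes called, and with exons within 2000 nt of the 3′ end alone it was 0.19 with 0 of 18 called. Without SCRM replicate 2, 4 of 30 were called, against 32.9% of all genes. None of the 4 lists of partner genes had a gene called (21, 6, 15 and 5 genes tested, 0 with an unadjusted p under 0.05, limma-voom). Fewer cells that make a transcript and less of it per cell cannot be told apart in these libraries.

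**Figure D5:**
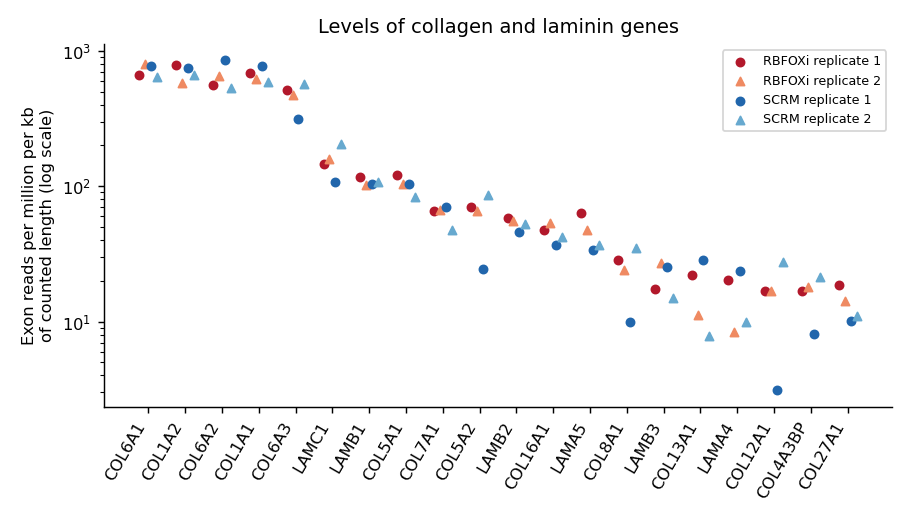
Exon reads, scaled to 1000000 per library and per kb of counted length (y axis, log scale), with a point for each library. The x axis holds the 20 genes with the highest SCRM mean among collagens, laminins and COL4A3BP. The red (RBFOXi) and blue (SCRM) points of COL6A1, COL1A2, COL6A2 and COL1A1 overlap at the top of the range, and the circle of SCRM replicate 1 is the lowest point in, among others, COL6A3, COL5A2, COL8A1 and COL12A1.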

How the data were processed

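The RNA-seq was made by the authors from total RNA of 2 biological replicates per group. Per the labels and the study's methods, reads were aligned to hg19 with STAR 2.4.2a and counted per event with rMATS on the UCSC known genes annotation. The deposited counts of inclusion and skipping reads, 2 libraries joined in a cell, are raw. PSI is the inclusion count per effective length over that of both forms. The deposited inclusion levels, 10 columns, were not used. The deposited p-value and FDR columns and the inclusion level difference, a score from -1 to 1, hold the authors' own comparison and were not used. Counts over all skipped exon events were 114415530 to 136097319 per library, with reads counted in each event they fit.

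Log2 odds of inclusion (pseudocount 0.5) for all tested events of a type entered limma 3.58.1 (R 4.3.3), with condition as the only term. Exon reads summed per gene were fitted with limma-voom, with genes needing 10 counts in 2 libraries. Because the deposited cells join 2 libraries and are no plain count columns, the negative binomial tools first planned were not used, and limma-voom and a quasi-binomial F test took their place. Fits were tested on simulated data. Introns and exons were read from GRCh37 (hg19) with GENCODE 44 lifted to it, and the canonical transcript gives exon numbers. Other steps used Python 3.11.15, scipy 1.17.1, pandas 2.3.3, numpy 2.4.6 and, for figures, matplotlib 3.10.9.

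The genes and lists were chosen with earlier results of these data known. Named were, for skipped exons, any called event, the 12 with the largest absolute delta PSI among those with no overlap of the groups, up to 15 with a SCRM PSI of 0.1 to 0.9 and 100 or more counts on average, and the exons of COL6A3 and COL4A3BP with a SCRM PSI of 0.05 to 0.95, with 1 event per exon in the first 3 sets. Some items that this rule names are not reported here. For other types the 2 with the smallest p were named, and for genes the 10 with the highest SCRM level. Events with an unadjusted p under 0.05, LAMA5 and exons beside a printed motif were named after their values were seen. Alternatives covered the test, variance trend, pseudocount, filters, replicate block, centring, delta PSI minimum, each library left out and the motif window.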

Additional observations from a re-analysis of the deposited data

How the results depend on the processing

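The count of 0 called skipped exon events held with pseudocounts of 0.1 and 1, 20 counts in every library, centred log odds, the quasi-binomial F test and the other variance trend (both chosen after seeing the data), a delta PSI minimum of 0.05 or none, 1 event per exon, and chain genes alone. With 1 count in every library as the only filter, 1 was called (COL6A3 exon 4, adjusted p = 0.0103, limma), against 44 of 82926 events of all genes called. With that filter 15 of 320 had an unadjusted p under 0.05 (limma). This count and those at an unadjusted p that follow are for collagens and laminins alone. They have no share over all genes beside them and are not to be read against the calls. With a library left out, 0 to 2 were called, both without RBFOXi replicate 1 (COL6A3 exons 3 and 4, where 63 of 35119 events of all genes were called), and 7 to 9 had an unadjusted p under 0.05; in the other settings but the replicate block it was 4 to 9. The median delta PSI was -0.000653 to -4.95e-06 with a library left out and moved by less than the spread between libraries in every setting run. Of the other event types, 0 to 4 were called with a library left out: 1 without SCRM replicate 1 (COL5A1, where 20 of 26184 pairs of all genes were called) and 4 without SCRM replicate 2 (all pairs with COL6A3 exon 4, where 1431 of 25913 pairs of all genes were called). Of genes, 0 to 4 were called with a library left out and 0 in every other setting run. The motif share became 42.7% for the whole downstream intron and 25.6% for GCAUG in 300 nt, against 53.0% and 24.4% of all tested events. The cause of these differences was not tested, apart from the wider search itself.

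With the replicate block, 1 skipped exon event was called (COL6A3 exon 4, adjusted p = 6.42e-07, limma). Calls over all events rose from 27 to 119. Adjusted p was also under 0.05, with a delta PSI under the minimum, for the COL5A1 pair (8.15e-06), COL6A3 exon 3 between exons 2 and 4 (0.000461) and COL6A3 exon 4 between exons 2 and 7 (0.0294). The block changed no other call on these genes. The deviations of same-numbered libraries had r = 0.0944 over all tested skipped exon events, -0.0742 over those of collagens and laminins, 0.0881 over all tested exon pairs and 0.387 over the 64 pairs of collagens and laminins, and the titles of same-numbered samples share a suffix whose meaning is not given, so the samples were not taken as paired.

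Of 318 refits of the 27 named events, 307 kept direction and side of the threshold and 5 moved past it. The log2 odds difference changed sign in 6, none called: COL8A1 62 nt exon (0.17 with the quasi-binomial F test and -0.56 to 0.31 with a library left out), COL4A3BP exon 11 (-0.77 to 0.48 with a library left out), COL16A1 exon 41 (-0.39 to 0.23), the LAMA1 3′ splice site (-0.16 to 1.00) and the COL27A1 5′ splice site (-1.48 to 0.25). The negative binomial tests planned for events and genes were not run. Where a library was left out, the lone sample of its group was assumed to vary like the others. Depth limited exons far from the 3′ end in SCRM replicate 1, and 2 libraries per group limited every test.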
